A study of Mus musculus with 7 samples.

Results

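The Fc receptors and Fc receptor-like genes of mouse B cells were described here on every array of a study of miR-155 overexpression. The members are the 9 genes Fcer2a, Fcgr2b, Fcgr3, Fcgr1, Fcgr4, Fcer1g, Fcrla, Fcrl1 and Fcrl5. They were found as the probe sets that name only 1 of these genes in the platform annotation, which gave 17 probe sets for 8 genes among 45037 non-control probe sets. Fcrl5 was not analysed here, as no probe set was assigned to it. Splenic B cells were taken with a magnetic B-cell isolation kit from 3 transgenic mice (TG), labelled Eu-miR-155 and FVB, and from 4 wild-type FVB mice (WT), and each sample was measured on 1 Affymetrix array. Both groups share the FVB background and carry no other labelled allele or treatment, and the labels give no age or sex. Eµ, an enhancer from the antibody heavy chain locus, directs a transgene to the B lineage, while other blood cells that remain in a spleen isolate are not its target. The p-values measure the spread between these samples, and the design text counts them as mice.

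Fc receptors bind the constant part of antibodies and tell a cell that antibody is present. Most activating receptors (FcγRI, FcγRIII and FcγRIV in the mouse, encoded by Fcgr1, Fcgr3 and Fcgr4) signal through the shared γ chain, encoded by Fcer1g, and are found on monocytes, macrophages, neutrophils, mast cells and, for FcγRIII, natural killer cells. Mature B cells instead carry the inhibitory receptor FcγRIIB (Fcgr2b), which recruits the phosphatase SHIP1 and dampens the B cell receptor, and the low-affinity IgE receptor CD23 (Fcer2a), which marks follicular B cells. The Fc receptor-like genes Fcrl1, Fcrl5 and Fcrla are related by sequence and are expressed mainly in B cells.

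The transgene carries miR-155, and its guide strand is shown because it is the agent that separates the groups. The mouse sequence in RefSeq (GRCm38.p6, chr16:84714143-84714165, plus strand) has its seed, bases 2 to 8, in capitals. The labels do not say which species' sequence the transgene holds.
mmu-miR-155-5p: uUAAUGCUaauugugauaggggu

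Short stretches of the RefSeq promoters are shown because Fcgr3, which rose, shares a purine-rich element with members that did not. The letters GAGGAA, on either strand (TTCCTC on the strand printed for most genes), form the core of elements bound by PU.1, a transcription factor of myeloid and B cells. Promoters were read as 250 bases before to 50 bases after each listed start, which gave 12 promoters for all 9 members. GAGGAA, chosen after the promoters were seen, was present in 5 of the 9 members, against 31.3% of 27025 genes. Each line gives 12 bases on either side of the motif in capitals, 5′ to 3′ on the gene's strand, in GRCm38.p6. The positions are chr1:171059392-171059421 (minus strand) for Fcgr3, chr3:96294007-96294036 (minus) for Fcgr1, chr1:171018892-171018921 (plus) for Fcgr4, chr1:170927603-170927632 (minus) for Fcrla, and chr3:87376362-87376391 (plus) for the nearer of the Fcrl1 matches.
Fcgr3: gagtccatttccTTCCTCtttttgtagttc
Fcgr1: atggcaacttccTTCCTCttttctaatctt
Fcgr4: aaggctatttacTTCCTCtcttctagtcaa
Fcrla: agttaggtttatTTCCTCttttctaatttg
Fcrl1: tccgaccacgacTTCCTCaaacctcagaga

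A match is a description of letters and not of binding. Of the 5 genes, Fcgr3 rose in TG arrays, Fcrl1 fell, Fcrla did not pass the test, and Fcgr1 and Fcgr4 were not above background on any array. The promoters of Fcer1g, Fcgr2b, Fcer2a and Fcrl5 held no GAGGAA in these windows. That of Fcer1g, whose gene had the largest change, is printed whole for comparison with Fcgr3 (chr1:171234300-171234599, minus strand, with no capitals because no motif was found).
Fcer1g: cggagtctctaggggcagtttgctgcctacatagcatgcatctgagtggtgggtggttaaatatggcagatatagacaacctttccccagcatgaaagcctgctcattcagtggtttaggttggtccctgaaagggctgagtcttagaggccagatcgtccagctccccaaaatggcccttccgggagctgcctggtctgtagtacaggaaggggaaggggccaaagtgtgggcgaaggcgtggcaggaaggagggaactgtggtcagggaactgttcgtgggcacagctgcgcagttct

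For Fcer2a, 1 of its 3 listed promoters held TTC and GAA with 4 bases of any kind between them, a form of element bound by STAT6, the factor through which interleukin 4 raises CD23 in B cells. The motif reads the same on both strands and was present in the promoters of 8.01% of genes. The match is shown in capitals with 12 bases on either side (chr8:3691008-3691041, minus strand).
Fcer2a: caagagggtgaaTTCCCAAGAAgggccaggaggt

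Expression is given as the log2 signal that GCRMA returned to the authors. No probe set read less than 2.17, and readings of 4 or less were counted as not above background. Probe sets of different genes are not set against each other, because their brightness also depends on the probes. By the X-linked RNA Xist and the Y-linked gene Eif2s3y, WT replicates 3 and 4 were male and the other 5 arrays female, so genotype is partly confounded with sex. The mean of 9 B cell markers (Cd79a, Ms4a1, Pax5 and others) was 12.98 to 13.30 on TG arrays and 13.36 to 13.49 on WT arrays, so the labelled cell type has its markers, and 1 of the 9 passed as lower. In bulk RNA, fewer cells of a type and less RNA per cell cannot be told apart.

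Of the 17 probe sets, 13 passed the filter on low values (above 4 on at least 3 of the 7 arrays) and were tested. They cover 6 genes, of which Fcgr3 met the filter only through the TG arrays, where it is high. With limma and Benjamini-Hochberg adjustment over 20994 probe sets, 4 of the 6 genes passed an adjusted p under 0.05 by their probe set of highest mean, where 10.7% of 9517 genes passed. Fcer1g and Fcgr3 were higher in TG arrays (8.11% of genes passed as higher), and Fcer2a and Fcrl1 were lower (2.56% passed as lower). The members were chosen with earlier results of these data known, so these shares give scale and do not test the members as a set. The 4 genes Fcer2a, Fcgr2b, Fcrla and Fcrl1 had a negative change by every tested probe set, where 49.3% of all genes had one. The B cell marker list had a median change of -0.27. The 11 probe sets of these 4 genes are repeat measures and not independent, and only 2 of them passed. In all, 4 of 13 probe sets passed, against 9.28% of probe sets. The groups did not overlap in 10 of the 13, against 27.5% of probe sets and 29.9% of genes.

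**Figure D1:**
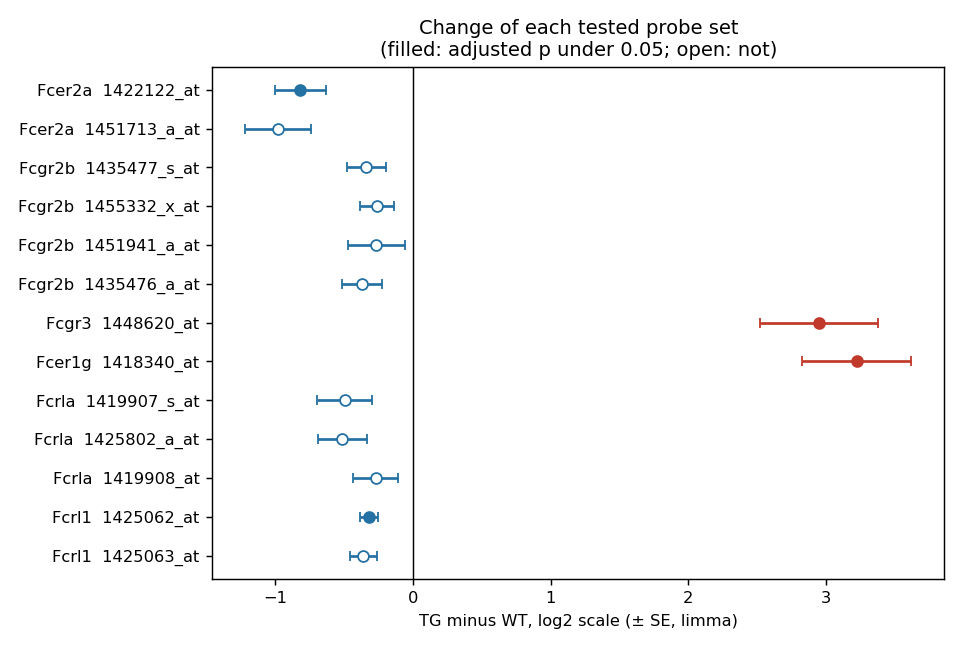
Change of the 13 tested probe sets, TG minus WT on the log2 scale, as the limma estimate ± SE, 3 TG and 4 WT arrays. The Fcer1g and Fcgr3 probe sets lie near 3 and the 11 probe sets of Fcer2a, Fcgr2b, Fcrla and Fcrl1 lie between -0.98 and -0.26; filled symbols passed.

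The shared signalling chain and the activating receptor rose together. Fcer1g, which encodes the γ chain with its activating tyrosine motif, read 7.90, 8.53 and 9.41 on TG replicates 1 to 3, against 4.94, 5.21, 5.42 and 5.996 on WT replicates 1 to 4. Every TG array was above every WT array by at least 1.90. The change was 3.22 ± 0.40 on the log2 scale (SE, limma adjusted p = 0.0124), or 9.33-fold, from means of 8.61 ± 0.76 (SD, n = 3) in TG and 5.39 ± 0.45 (SD, n = 4) in WT.

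Fcgr3, which encodes the low-affinity activating IgG receptor FcγRIII (CD16), read 6.18, 6.76 and 7.98 on the TG arrays, against 3.85, 3.85, 3.85 and 4.56 on the WT arrays. Only WT replicate 4 was above background among the wild types, and the groups were 1.63 apart. The fitted change was 2.95 ± 0.43 (SE, limma adjusted p = 0.0178), and 2.84 with values under 4 set at 4, so its fold is not exact. Mouse Fcgr3 and Fcgr2b have nearly identical extracellular parts, and cross-hybridisation of their probes was not tested.

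The other activating receptors that use the γ chain were not above background. Both probe sets of Fcgr1, the high-affinity IgG receptor FcγRI (CD64) of monocytes and macrophages, were at or below 2.91 on all 7 arrays, and 1 of them stood at the lowest value on each array. Fcgr4, the FcγRIV of neutrophils and monocytes, read 2.17 to 2.19. Fcer1a and Ms4a2, the other subunits of the mast cell and basophil IgE receptor, read 2.17 on all 7 arrays. No fold is given for these genes, since neither group rose above background.

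**Figure D2:**
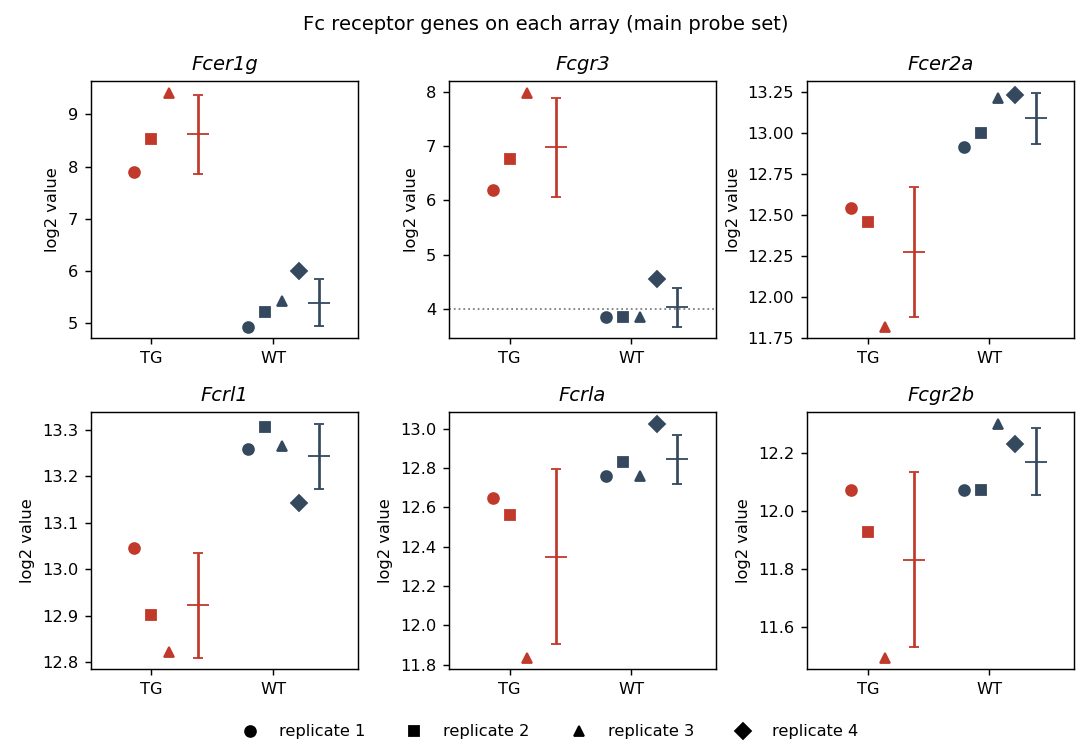
log2 values of the 6 tested member genes on each array (main probe set), with replicates as symbols and mean ± SD beside them; each panel has its own axis, which does not start at 0, and the dotted line marks the background level of 4. TG arrays lie above WT arrays for Fcer1g and Fcgr3 and below them for Fcer2a, Fcrl1 and Fcrla, while for Fcgr2b TG replicate 1 has the value of WT replicates 1 and 2.

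On the same arrays, markers of other blood cells were higher in TG isolates. The mean of 10 granulocyte markers was 8.81, 7.57 and 8.35 on TG replicates 1 to 3, against 2.71 to 3.54 on WT arrays. The mean of 7 natural killer cell markers was 4.99, 5.25 and 6.19 in TG, against 2.99 to 3.08 in WT, and Klra8 read 2.17 on every array. The mean of 7 dendritic cell markers was 5.43, 5.85 and 6.86 in TG, against 4.23 to 4.59 in WT, and that of 6 erythroid markers 4.06, 6.02 and 6.09 in TG, against 2.30 to 2.36 in WT. Many genes of these lists were above background on TG arrays alone and met the filter only through them, so no count of those passing is given.

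The mean of 10 monocyte and macrophage markers was 4.85, 5.27 and 6.76 in TG, against 3.55, 3.73, 4.13 and 4.79 on WT replicates 1 to 4. That mean was highest on TG replicate 3 and, among the wild types, on replicate 4, which are also the arrays with the highest Fcer1g and Fcgr3 of their groups. The same holds for the natural killer mean (6.19 and 3.08) and the dendritic mean (6.86 and 4.59), so the match is not particular to monocytes. The granulocyte mean was highest on TG replicate 1 and WT replicate 4, and the erythroid mean on TG replicate 3 and WT replicate 3. Within the granulocyte list, Mpo, Elane, Prtn3 and Ctsg were highest on TG replicate 3 and, among the wild types, on replicate 4. Among the TG arrays, S100a8, S100a9, Ngp, Camp and Ltf were highest on replicate 1, and Lcn2 on replicate 2. The mean of 6 mast cell and basophil markers stayed between 2.32 and 2.81 in TG and between 2.21 and 2.23 in WT, and none of these markers met the filter. The order of 3 TG and 4 WT arrays cannot tell these cell types apart, and their part in the rises of Fcer1g and Fcgr3 was not tested.

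**Figure D3:**
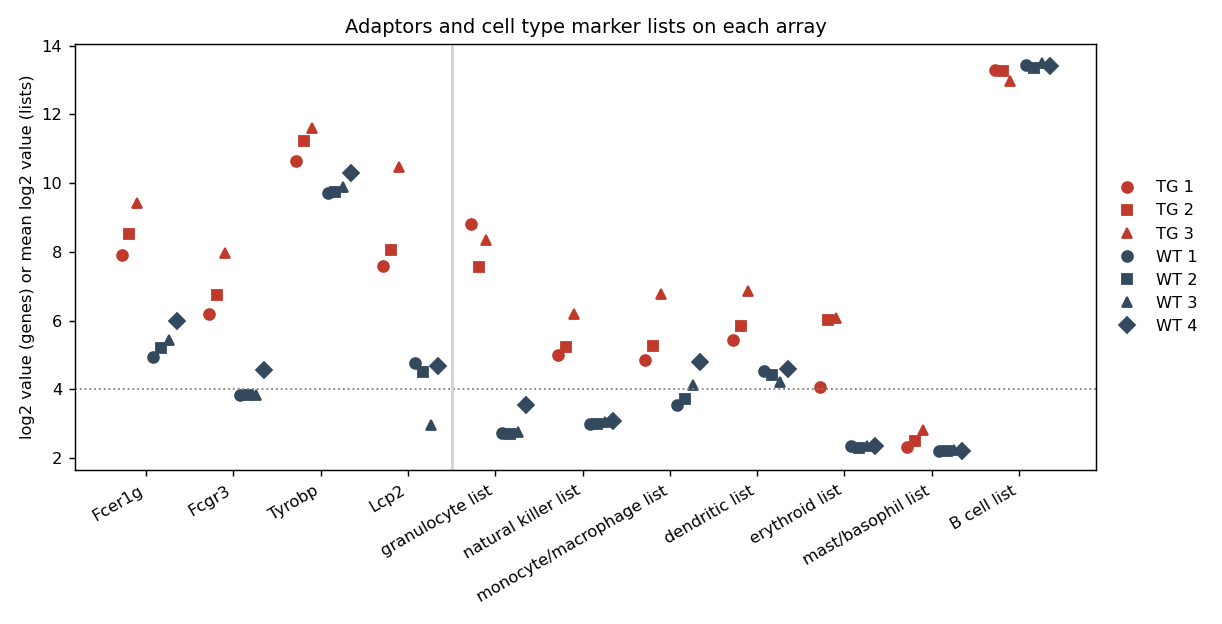
log2 values of Fcer1g, Fcgr3 and the signalling genes Tyrobp and Lcp2, and mean log2 values of marker lists, on each array (TG red, left; WT dark, right). The TG arrays are above all WT arrays for the 4 genes and for the granulocyte, natural killer, monocyte, dendritic and erythroid lists, by a small margin for monocytes (4.85 against 4.79), while the mast cell and basophil list stays under 4.

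Among genes that carry Fc receptor signals, the adaptor genes Tyrobp and Lcp2 rose and the other genes tested did not pass. Of 17 tested genes 2 passed as higher, where 8.11% of all genes did, and 0 as lower. The count is near that share, so it is not read as a result about the list. The median change was -0.09, against 0.002 over all genes tested. Tyrobp, which encodes DAP12, an adaptor with a motif like that of the γ chain, read 10.65, 11.22 and 11.61 in TG, against 9.70, 9.73, 9.90 and 10.31 in WT, a change of 1.25 ± 0.25 (SE, limma adjusted p = 0.0337). Lcp2, which encodes the adaptor SLP-76 of myeloid, natural killer and T cells, read 7.58, 8.07 and 10.49 in TG, against 4.76, 4.51, 2.96 and 4.69 in WT. Its change was 4.48 ± 0.79 (SE, limma adjusted p = 0.0252), and 4.22 with values under 4 set at 4.

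The remaining genes of that list that the naming rule gave did not pass. They were Dok1, an adaptor that restrains signalling (0.26, limma adjusted p = 0.0562), Inpp5d, which encodes SHIP1, the phosphatase recruited by FcγRIIB (-0.20, adjusted p = 0.0684), Ptpn6, which encodes the phosphatase SHP-1 (-0.27, adjusted p = 0.114), and the kinase gene Btk (-0.42, adjusted p = 0.137). Cd247, a gene of the same list that was not tested, was above background on TG replicate 3 alone, at 8.54, and is named here after its values were seen. The mean of 8 T cell markers was also far higher on that array, at 8.58, against 4.71 and 4.90 on the other TG arrays and 4.44 to 4.57 on WT arrays.

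The calls of the rising genes depended on a few arrays. Fcer1g lost its call without TG replicate 2 (3.26, limma adjusted p = 0.0671) or WT replicate 2 (3.16, adjusted p = 0.0542), and Fcgr3 without TG replicate 2 (3.06, adjusted p = 0.0745), WT replicate 2 (2.89, adjusted p = 0.0640) or WT replicate 3 (2.89, adjusted p = 0.0537). With WT replicates 3 and 4, the male arrays, both left out, the changes were 3.54 for Fcer1g (adjusted p = 0.110) and 3.13 for Fcgr3 (adjusted p = 0.126). The calls of Tyrobp and Lcp2 were lost without TG replicate 2 (adjusted p = 0.111 and 0.0852) or any 1 WT array (0.0563 to 0.0948 and 0.0581 to 0.0760), and that of Tyrobp also without TG replicate 3 (0.0593).

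Fcer1g and Fcgr3 lie near each other in the Fc receptor cluster of chromosome 1. In the order of GRCm38.p6 the members run Fcrla, Fcgr2b, Fcgr4, Fcgr3 and Fcer1g, with 7 other protein-coding genes between the last pair. Of those 7, 3 were tested and 0 passed with limma. They were Sdhc, a mitochondrial respiratory subunit (0.15, adjusted p = 0.147), Pcp4l1 (1.55, adjusted p = 0.0731) and Tomm40l (0.01, adjusted p = 0.898). Within the cluster the fitted changes thus ran from -0.50 for Fcrla and -0.34 for Fcgr2b to 2.95 and 3.22, with Fcgr4 below background between them.

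The profiles most like each of the rising members were sought among all 9517 tested genes, as the smallest root mean square difference over the 7 arrays after each gene was centred on its own mean. For Fcer1g the nearest were Fcgr3 (0.214 on the log2 scale), Tbc1d2b (0.233) and Tbc1d4 (0.289). For Fcgr3 they were Hk3, a hexokinase of myeloid cells (0.192), Fcer1g (0.214) and Ckap2 (0.226). Each of the pair is therefore among the 3 nearest profiles of the other. The measure includes the difference between TG and WT, so genes with changes of like size come out near each other. The other neighbours changed by 2.86 (Ckap2) to 3.28 (Tbc1d2b). Hk3, Ckap2 and Tbc1d2b had WT means below background (2.93, 2.44 and 3.96), and Fcgr3 was above it on WT replicate 4 alone among the wild types. Nearness over the WT arrays is therefore partly that of low values.

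The IgE receptor of follicular B cells was lower in TG arrays. Fcer2a, which encodes CD23, read 12.54, 12.46 and 11.82 on TG replicates 1 to 3, against 12.91, 13.00, 13.21 and 13.23 on WT replicates 1 to 4. No TG array reached the lowest WT array, and TG replicate 3 was the lowest of all. The change was -0.82 ± 0.19 (SE, limma adjusted p = 0.0451), or 1.76-fold lower in TG, from means of 12.27 ± 0.40 (SD, n = 3) in TG and 13.09 ± 0.16 (SD, n = 4) in WT.

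A dimmer Fcer2a probe set gave the same picture without passing. It read 10.75, 10.71 and 9.84 in TG, against 11.20, 11.35, 11.62 and 11.47 in WT, a change of -0.98 ± 0.24 (SE, limma adjusted p = 0.0512). The male WT replicates 3 and 4 had the higher Fcer2a values among the wild types by both probe sets. Against WT replicates 1 and 2 alone the change of the brighter probe set was -0.68 (adjusted p = 0.240).

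The call of Fcer2a was close to the threshold. It was lost without WT replicate 1, 2, 3 or 4 (limma adjusted p = 0.0808, 0.104, 0.109 and 0.106) or TG replicate 2 (0.102), with changes of -0.91 to -0.77. It held without TG replicate 3, at -0.59 (adjusted p = 0.0367), and was lost without both TG replicate 3 and WT replicate 4, at -0.54 (adjusted p = 0.0737). The sign was negative in all of these.

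Of 7 tested genes of CD23 shedding and class switch to IgE, Il4ra, Il21r and Cd40 passed as lower, where 2.56% of all genes did. As higher 0 passed, and the median change was -0.44. The list was chosen with earlier results of these data known, so that share does not test it. Il4ra, the interleukin 4 receptor α chain, read 10.57, 10.53 and 10.39 in TG, against 11.26, 11.14, 11.09 and 11.05 in WT, a change of -0.64 ± 0.07 (SE, limma adjusted p = 0.00958). The groups did not overlap, and a second probe set passed too (-0.54, adjusted p = 0.0212). Il21r, the receptor for interleukin 21, a cytokine of T cell help, read 9.66, 9.68 and 9.63 in TG, against 10.25, 10.16, 9.94 and 10.16 in WT (-0.47 ± 0.08, adjusted p = 0.0233).

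Cd40, the receptor for T cell help that acts with interleukin 4 in class switching to IgE, changed by -0.44 ± 0.11 (SE, limma adjusted p = 0.0495). Its other probe sets did not pass. Stat6, the factor downstream of the interleukin 4 receptor, changed by -0.38 (adjusted p = 0.0673) and Cr2, a complement receptor, by -0.54 (adjusted p = 0.0896). Adam10, the protease that sheds CD23 from the cell surface, changed by -0.12 by its brightest probe set, with overlapping groups (adjusted p = 0.326), and by -0.69, -0.20 and -0.16 by 3 dimmer ones, none of which passed (adjusted p = 0.116, 0.0808 and 0.189) and of which the last 2 had groups that did not overlap. Notch2, the receptor that directs marginal zone fate and the one gene of the list outside the naming rule, changed by -0.23, with overlapping groups (adjusted p = 0.399).

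The call of Il4ra was lost without TG replicate 2 alone among the arrays left out singly (limma adjusted p = 0.0542). That of Il21r was lost without TG replicate 2 (0.0874) or WT replicate 1, 2 or 4 (0.0504, 0.0730 and 0.0630), and that of Cd40 without any 1 array but TG replicate 3 (0.0512 to 0.115). Without the male WT replicates 3 and 4 none of the 3 passed (Il4ra -0.70, adjusted p = 0.109; Il21r -0.54, 0.108; Cd40 -0.42, 0.234). The B cell marker list had a median change of -0.27 on the same arrays, and the part of a smaller share of B cells in these changes was not tested.

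**Figure D4:**
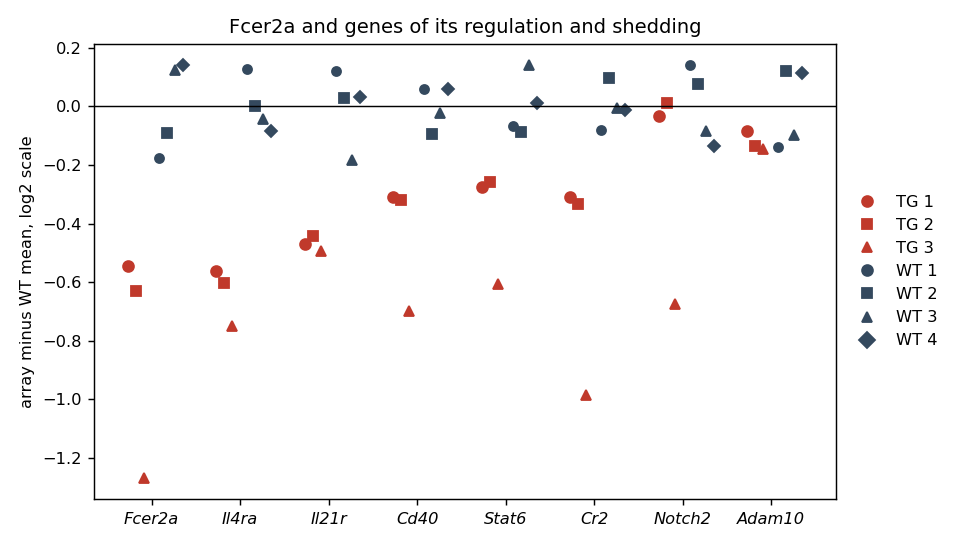
Each array's log2 value minus the WT mean for Fcer2a and genes of CD23 shedding and class switch to IgE (TG red on the left, WT dark on the right). The TG arrays lie below all WT arrays for Fcer2a, Il4ra, Il21r, Cd40, Stat6 and Cr2, and overlap them for Notch2 and Adam10; TG replicate 3 lies at -1.27 for Fcer2a.

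The profiles nearest to that of Fcer2a were Cd2, a lymphocyte adhesion receptor that also stands in the T cell marker list (0.0506 root mean square difference, change -0.81), Bcl6, the germinal centre repressor (0.0913, change -0.96), and Clcf1, a B cell stimulating cytokine (0.110, change -0.82). Genes that mark follicular or marginal zone B cells had 0 of 9 passing with limma, with a median change of -0.45. Those of smallest p were Cd9, a tetraspanin (1.25, adjusted p = 0.0691), Cr2, Cd1d1 (0.57, adjusted p = 0.121), Klf2 (-0.67, adjusted p = 0.144), S1pr1 (-0.65, adjusted p = 0.231) and Cd36 (-0.69, adjusted p = 0.312). At an unadjusted p under 0.05 the list had 4 of 9, where 30.9% of all genes had one.

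Fcrl1, a B cell surface protein with activating tyrosine motifs, was slightly lower in TG arrays. Its brighter probe set read 13.04, 12.90 and 12.82 in TG, against 13.26, 13.31, 13.26 and 13.14 in WT, and the groups did not overlap. The change was -0.32 ± 0.07 (SE, limma adjusted p = 0.0353), or 1.25-fold lower in TG. On the same arrays the B cell marker list had a median change of -0.27. Whether the changes of Fcrl1, Fcrla and Fcgr2b go beyond that of B cell genes at large was not tested. The dimmer probe set changed by -0.36 ± 0.10 and did not pass (adjusted p = 0.0648). The call of the brighter one was lost without any 1 array but TG replicate 1 (adjusted p = 0.0589 to 0.116).

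Fcrla, which encodes an Fc receptor-like protein kept inside B cells, had a negative change by all 3 probe sets and passed by none. The brightest read 12.65, 12.56 and 11.84 in TG, against 12.76, 12.83, 12.76 and 13.03 in WT. The groups were 0.11 apart, and TG replicate 3 lay far below the other TG arrays. The change was -0.50 ± 0.20 (SE, limma adjusted p = 0.157), and the others changed by -0.51 (adjusted p = 0.119) and -0.27 (adjusted p = 0.305). Without TG replicate 3 the change of the brightest was -0.24 (adjusted p = 0.161). The nearest profiles were Ugcg (0.0412), Gadd45a (0.0517) and Sh3bp5 (0.0643), none of which passed.

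Fcgr2b, the inhibitory receptor and the sole classical IgG receptor of mature B cells, did not pass by any of its 4 tested probe sets, which changed by -0.37 to -0.26 (limma adjusted p = 0.147 to 0.409). The brightest read 12.07, 11.93 and 11.50 in TG, against 12.07, 12.07, 12.30 and 12.23 in WT. TG replicate 1 had the same value as WT replicates 1 and 2, so the groups touched. The change was -0.34 ± 0.14 (SE, adjusted p = 0.171). Without TG replicate 3 it was -0.17 (adjusted p = 0.286). The fifth Fcgr2b probe set stood at the lowest value on every array. The _s_at and _x_at endings of 2 of the 4 mark probes that can also match other transcripts.

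TG replicate 3 stood farthest from the WT arrays in most member probe sets. It was the lowest of the 7 arrays in 10 of the 11 probe sets with a negative change and the highest in both with a positive one. Its difference from the WT mean was -1.27 for Fcer2a, -1.01 for Fcrla, -0.67 for Fcgr2b and -0.42 for Fcrl1, against -0.59, -0.24, -0.17 and -0.27 for the mean of TG replicates 1 and 2. For Fcer1g and Fcgr3 it was 4.02 and 3.96, against 2.82 and 2.45. The T cell markers stood apart on the same array, and their part in these values was not tested. Over all non-control probe sets its median was 3.39, against 3.05 and 3.09 on TG replicates 1 and 2 and 2.96 to 2.97 on WT arrays. The mean of 9 B cell markers was lowest there too, at 12.98, against 13.30 and 13.28. How often TG replicate 3 was the lowest or highest array over all probe sets was not counted, so its place is not read as a trait of the members.

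**Figure D5:**
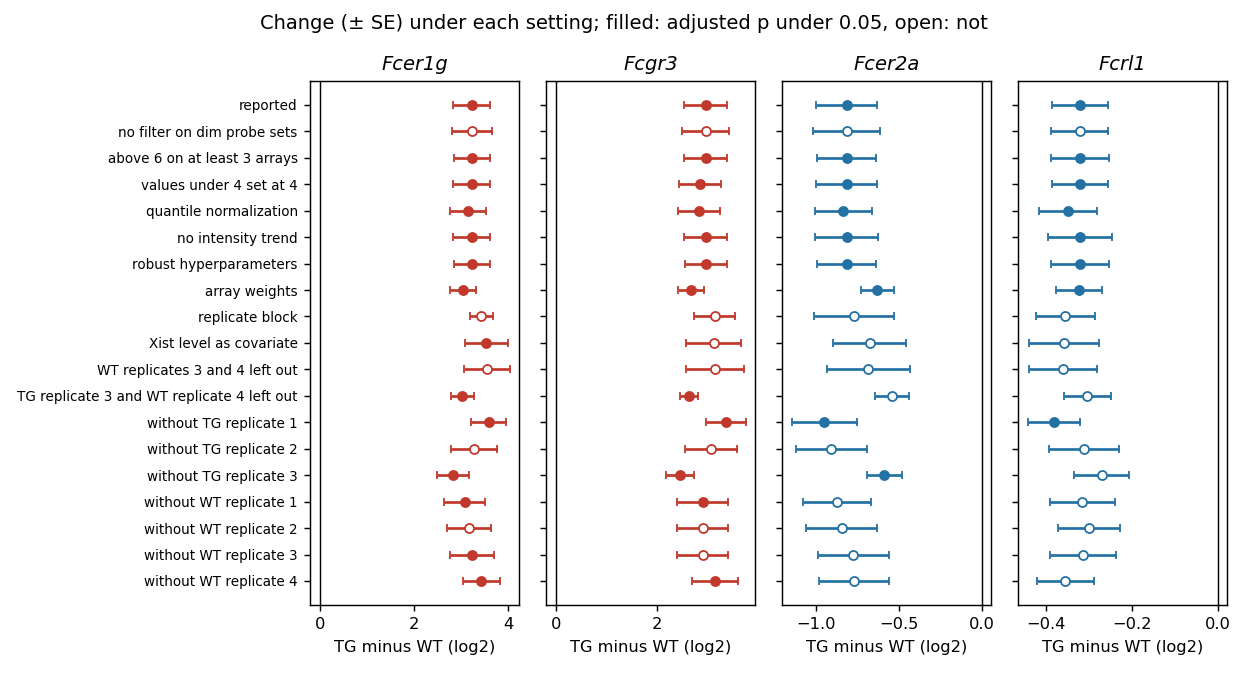
Change of the 4 members that passed, TG minus WT on the log2 scale ± SE, as reported and under each of 18 other settings; each panel has its own axis with 0 marked. Signs are kept in every setting, and open symbols show where the adjusted p was not under 0.05.

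Other receptors for antibody were measured from a list of 9 genes, of which 4 were tested. With limma 0 of the 4 passed, where 10.7% of all genes did. Fcmr and Pigr, 2 of the 4, had an unadjusted p under 0.05, where 30.9% of all genes had one. Fcmr, the IgM receptor of B cells, read 14.08, 13.93 and 13.76 in TG, against 14.28, 14.16, 14.19 and 14.22 in WT. The groups did not overlap, and its change of -0.29 ± 0.08 (SE) did not pass (limma adjusted p = 0.0646). Pigr, which carries polymeric antibody across epithelia, read 5.62, 5.56 and 5.06 in TG, against 5.65, 6.10, 6.71 and 6.65 in WT (-0.86 ± 0.29, adjusted p = 0.110).

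Fcgrt, which encodes the neonatal Fc receptor that recycles IgG, changed by -0.22 (limma adjusted p = 0.229) and Trim21, a cytosolic antibody receptor, by 0.09 (adjusted p = 0.789), with overlapping groups in both. The sign of Trim21 turned under some settings, down to -0.20 with array weights. Fcamr, a receptor for IgA and IgM, stood at the lowest value on every array. Fcrlb and Fcrl6 were not analysed here.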

How the data were processed

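RNA of splenic B cells from 3 TG and 4 WT mice was measured on Affymetrix arrays. The deposited table holds the authors' log2 values, made with GCRMA per the submitters' processing notes; its version and settings are not given in the sources used here. No further normalization was applied. Of 45101 probe sets, 64 controls were left out. Genes came from GEO's platform annotation, with symbols updated through Entrez identifiers in RefSeq GRCm38.p6; 34945 probe sets named 1 gene, 932 several and 9160 none. Probe sets above 4 on at least 3 of 7 arrays (20994) were fitted by genotype with limma 3.58.1 (R 4.3.3; lmFit, eBayes with an intensity trend), with Benjamini-Hochberg adjustment over all of them and a threshold of 0.05. A gene was represented by its tested single-gene probe set of highest mean.

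All member probe sets are named, as are all other Fc receptors, up to 6 genes of smallest p from each pathway list, and the 3 nearest profiles of the 4 members with the largest change. Members and lists were chosen with earlier results of these data known. The alternatives were the filter on dim probe sets, a floor, quantile normalization, the intensity trend, robust fitting, array weights, a replicate block, Xist as a covariate, the threshold, the choice of probe set, and arrays left out. On simulated data of 20994 probe sets the fit recovered 70% of log2 changes of 1 and 93% of changes of 2, with 5 false calls. The simulated noise was independent for each probe set, with no array that stood apart and no sex difference, so these rates need not hold here. The number of arrays limits the precision. Promoters and the miRNA are from RefSeq, GRCm38.p6.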

Additional observations from a re-analysis of the deposited data

Results flagged for a closer look

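Among the 4 WT arrays, 3 values were set apart because their gap to the nearest other array took up most or all of the group's range. Such a gap is expected by chance in about 1 in 20 groups, a rate that does not hold for Fcgr3 and Fcgr1, whose other WT arrays were tied or nearly tied below background. Fcgr3 read 4.56 on WT replicate 4, where the other WT arrays read 3.85. A probe set of Fcgr1 read 2.91 on WT replicate 3 and 2.90 on the others, a very small gap below background. Lcp2 read 2.96 on WT replicate 3, where the nearest other WT array read 4.51.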

How the results depend on the processing

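Of 20 alternatives, 11 changed the number of member genes passing, which was 4 of 6. It was 0 with no filter on dim probe sets, 0 with the replicate number as a block, 0 without WT replicates 3 and 4, 1 (Fcer1g) with Xist as a covariate, and 2 (Fcer1g and Fcgr3) without TG replicate 3 and WT replicate 4. Leaving out 1 array gave 0 to 4, with 0 without TG replicate 2 or WT replicate 2, 1 without WT replicate 3, 2 without WT replicate 1 or WT replicate 4, and 3 (all but Fcrl1) without TG replicate 3. At an unadjusted p under 0.05, limma called 4 members with no filter (of all genes, 3050 of 18193), 4 with the block (1957 of 9517), 4 without WT replicates 3 and 4 (1946), 4 without WT replicate 2 (2388) and 5 without TG replicate 2 (2386). Fcer1g and Fcgr3 both passed in 13 of the 20. Of all genes, 1016 passed as reported, 116 with no filter, 2763 with array weights, 3 with the block, 156 with Xist as a covariate, 12 without WT replicates 3 and 4, 408 without TG replicate 3 and WT replicate 4, and 87 to 1074 without 1 array. Over 234 values of the 13 member probe sets under 18 alternatives, 0 changed sign, 33 lost and 11 gained a call. Trim21 turned negative with array weights (-0.20), with Xist as a covariate (-0.12), without WT replicates 3 and 4 (-0.11) and without TG replicate 3 and WT replicate 4 (-0.10), and ran from -0.10 to 0.24 without 1 array. The block used 3 same-numbered pairs and left out WT replicate 4; deviations of same-numbered arrays correlated at -0.04, -0.14 and -0.29, so the numbers were not taken to pair the samples. With the block the calls of Il4ra, Il21r and Cd40 were lost too (adjusted p = 0.122, 0.168 and 0.198). The member changes were 3.42 for Fcer1g, 3.13 for Fcgr3, -0.77 for Fcer2a and -0.35 for Fcrl1 (limma adjusted p = 0.110, 0.146, 0.229 and 0.168). The cause of these differences was not tested; fewer arrays leave fewer degrees of freedom. Signals near background limit Fcgr3, Lcp2, Fcgr1 and Fcgr4.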
